A study of Mus musculus with 2 samples.

Results

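The miRNA genes of the Sfmbt2 repeat cluster and its relatives, Mir297, Mir466, Mir467 and Mir669, were followed in the limb of the mouse embryo. Members were taken by symbol in GENCODE M21 (GRCm38, the same assembly as mm10), and 69 of the 1973 miRNA genes in the count tables met the rule. Small RNA below 30 nt was sequenced from limbs of strain B6NCrl at 15.5 days of embryonic development, as 2 biological replicates pooled from 78 and 62 embryos of both sexes. There was 1 group, with no second tissue, stage, genotype or treatment, so levels are described and the replicates are set against each other. Whole limbs hold many cell types, and a pool cannot tell fewer cells with a miRNA from less of it per cell.

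Sfmbt2 encodes a Polycomb group protein and is expressed from the paternal allele in extraembryonic tissue. Its intron carries one of the largest miRNA clusters of the mouse, in which related hairpins that arose by local duplication are repeated in tandem. The cluster is restricted to rodents and is known from embryonic stem cells, trophoblast and placenta. A miRNA is cut from its hairpin precursor, loaded into an Argonaute protein and directed to messenger RNAs mainly by its seed, the bases near its 5′ end.

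Of the 69 members, 59 lay inside Sfmbt2 on its own strand, on chromosome 2 from 10466663 to 10518279, a span of 51617 bases. All 59 were in intron 11 of the principal Sfmbt2 transcript (10461473 to 10523944), and none overlapped an exon of any Sfmbt2 transcript. The other 10 members lay on chromosomes 3, 5, 7, 9, 10, 11 and 13. Of these, Mir466q lay in an intron of the kinase gene Tnik and 9 overlapped no annotated gene on their strand. Overlap with other miRNA genes was not searched. By family there were 6 Mir297, 25 Mir466, 17 Mir467 and 21 Mir669 genes. A further 12 symbols of the annotation that meet the rule, 9 Mir669a copies with Mir466b-1, Mir466c-1 and Mir466e, were without a row and are not analysed here.

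Mature sequences in the RefSeq table (GRCm38.p6) matched 8 of the 69 members, all of them outside Sfmbt2. They are shown for the alternating UG and CA letters that recur in the Mir466, Mir467 and Mir669 families. Each is written 5′ to 3′ with the seed (bases 2 to 8) in capitals.
miR-466q (chr3:28419988-28420007, plus strand): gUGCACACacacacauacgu
miR-466k (chr3:85467396-85467418, plus strand): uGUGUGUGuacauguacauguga
miR-466j (chr10:60960802-60960824, plus strand): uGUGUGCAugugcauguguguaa
miR-466i-3p (chr13:17747552-17747573, plus strand): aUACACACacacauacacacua
miR-467f (chr11:69635419-69635439, minus strand): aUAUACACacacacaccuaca
miR-467g (chr5:34732872-34732892, minus strand): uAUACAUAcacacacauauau
miR-467h (chr9:115381898-115381919, plus strand): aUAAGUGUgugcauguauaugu
miR-669n (chr3:115979905-115979924, plus strand): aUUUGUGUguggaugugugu

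The 8 sequences had 8 different seeds. The sequence of miR-467h stood whole in 2 other annotated precursors, Gm25510 and Gm26303, that of miR-467g in annotated transcripts of 4 other genes, and that of miR-466i-3p in those of 1 other gene. For the Mir297 family only the hairpin of Mir297-1 (chr7:10958437-10958512, minus strand) is shown, in which UAUG and UGCA recur. The other Mir297 precursors were not searched for these units.
Mir297-1 hairpin: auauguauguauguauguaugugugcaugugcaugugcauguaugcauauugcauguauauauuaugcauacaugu

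Alternating TG or CA runs of at least 8 bases were common in the members' precursors, except in the Mir297 family. An alternating TG or CA run of at least 8 bases, starting at either letter (CA is TG read on the other strand), stood in 56 of the 69 precursors (81.2%) and in 228 of the 1894 miRNA precursors with a sequence (12%). It was found in 24 of 25 Mir466, 17 of 17 Mir467, 15 of 21 Mir669 and 0 of 6 Mir297 precursors. The longest run had a median of 9 bases in the members, 7 bases (just under the cut) in the Mir297 family and 4 bases over all precursors. It reached 28 bases in Mir466q, and 23 bases in both Mir466i and Mir466k.

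How much of a member's sequence is its own bears on every count below, since reads with several alignments were totalled on a separate line and entered no gene. That line held 29.4% of all reads of replicate 1 and 29.7% of replicate 2, 160 and 141 times the sense counts of all members together. How many of those reads came from the members was not tested. A member's counts are therefore of the reads that aligned to 1 place, and its true level can be higher. At least 1 stretch of 20 bases was shared with another miRNA precursor by 67 of the 69 members (97.1%) and by 952 of the 1894 precursors (50.3%). No stretch of 20 bases at all was their own in 20 members, and 17 had a precursor identical to that of another annotated gene. Sharing was searched only among annotated sequences, not in the genome, and over the whole precursor, not the mature miRNA alone.

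The limb libraries nevertheless held a clear signal from the cluster, and nearly all of the counted reads came from a few members. The members had 16891 sense counts of 4263630 in replicate 1 and 22876 of 5151214 in replicate 2. The share of all sense counts of miRNA genes was 0.396%, with a Wilson 95% interval from 0.390 to 0.402, in replicate 1. It was 0.444%, from 0.438 to 0.450, in replicate 2. As CPM, the count per 1000000 sense counts, the members summed to 4201 ± 339 (SD, n = 2). CPM is not divided by precursor length, because reads of a miRNA are whole short molecules. Intervals cover counting error only.

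Detection required 10 or more sense counts in each of the replicates. By this rule 9 of 69 members (13.0%) were detected, beside 17.2% of all 1973 miRNA genes. No sense count in either replicate was found for 48 members. For reads that align to 1 place, a count of 0 allows up to 3 counts (0.704 CPM in the first library, 0.582 in the second). It sets no upper limit on the level of a member whose sequence is shared, and 19 of the 48 have no 20-base stretch of their own. The 9 detected members held 99.9% of the members' counts in each replicate. All 9 lay in Sfmbt2, and none of the 10 members elsewhere in the genome had a sense count.

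**Figure D1:**
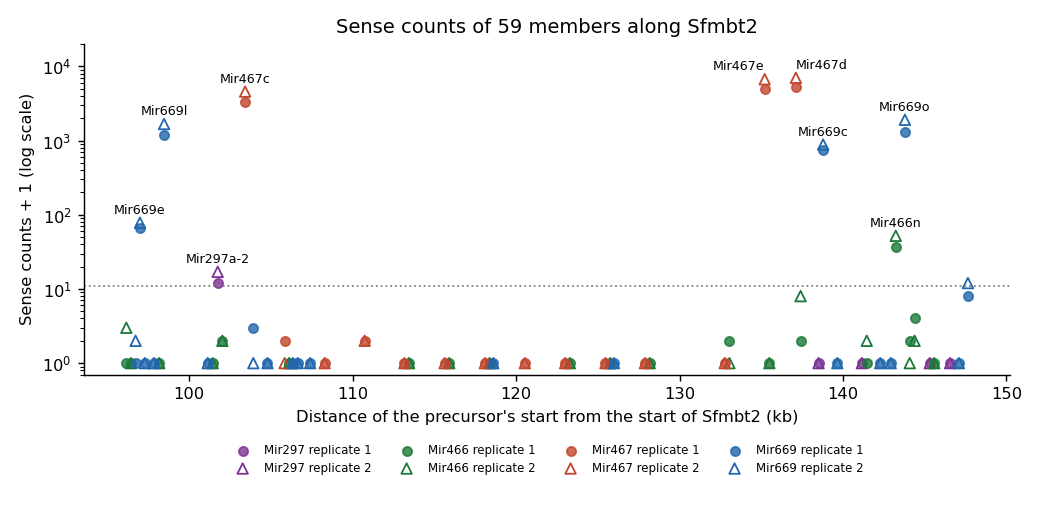
Sense counts plus 1 (log scale) of the 59 members in Sfmbt2 against the distance of each precursor from the start of the gene in kb, filled circles for replicate 1 and open triangles for replicate 2, coloured by family, with a dotted line at 10 counts. The 9 named members stand above the line at both ends of the cluster, and the 23 members from Mir467a-1 to Mir467a-10 between them hold 2 counts in replicate 1 and 1 in replicate 2.

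Among reads that aligned to 1 place, the Mir467 family had the most counts, nearly all from 3 members. Families differ in how much sequence is their own, so this does not rank their true levels. Mir467d (ENSMUSG00000077021.2, chromosome 2, 10507630 to 10507714) had 5190 sense counts in replicate 1 and 6997 in replicate 2, or 1217 and 1358 CPM. Mir467e (10505721 to 10505807) had 4986 and 6693 counts, or 1169 and 1299 CPM. Mir467c (10473931 to 10474027) had 3353 and 4565 counts, or 786 and 886 CPM. Mir467d and Mir467e lie on the 3′ side of the Mir467a copies, with Mir466p between them, while Mir467c lies on the 5′ side.

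The 3 genes took 80.1% of the members' sense counts in replicate 1 and 79.8% in replicate 2. Mir467d exceeded Mir467e by 1.04-fold and 1.05-fold in the 2 replicates, and the ranges of their CPM over the replicates overlapped, so their order is not fixed by these data. Mir467c lay below both in each replicate, with no overlap. By mean CPM over all miRNA genes, Mir467d ranked 89, Mir467e 91 and Mir467c 103.

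The remaining Mir467 members of the locus had almost no counts. The 10 Mir467a copies together had 1 sense count in replicate 1 and 0 in replicate 2, and Mir467b had 1 in each. Mir467d shared a stretch of 60 of its 85 bases with Mir467a copies, and reads from that stretch are in neither count. Mir467c and Mir467e shared a stretch of 48 bases with each other. Of their 20-base stretches, 37.9% in Mir467d, 57.4% in Mir467e and 60.3% in Mir467c stood in no other miRNA precursor.

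In the Mir669 family 4 of 21 members were detected, with means from 15.1 to 337 CPM. Mir669o (ENSMUSG00000077086.1, chromosome 2, 10514300 to 10514395) had 1302 and 1902 sense counts in replicates 1 and 2, or 305 and 369 CPM. Mir669l had 1184 and 1669 counts, or 278 and 324 CPM. Mir669c had 746 and 881 counts, or 175 and 171 CPM. Their ranges separated Mir669c from the others, while those of Mir669o and Mir669l overlapped.

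Mir669e had 65 and 77 sense counts, or 15.2 and 14.9 CPM, and lay 11.5-fold below Mir669c by mean CPM. This was the widest step between neighbours among the 9 detected members. Mir669e had also the most sequence of its own, with 95% of its 20-base stretches in no other precursor, against 81.1% for Mir669c and 50.6% for both Mir669o and Mir669l. The longest stretch it shared with another precursor was 24 bases, compared with 57 bases between Mir669l and Mir669d.

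Among the undetected Mir669 genes are the Mir669a copies, whose product has been described as a repressor of the myogenic factor MyoD in cardiac progenitors. Of the 3 copies with a row, Mir669a-1 and Mir669a-2 had no count and Mir669a-3 had 2 in replicate 1 alone. Mir669o shared a stretch of 38 bases with Mir669a copies. Since Mir669a-1 and Mir669a-2 have no 20-base stretch of their own, these counts do not show whether miR-669a is present in the limb.

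Mir466, the family with the most genes, had the lowest share of detected members. Only Mir466n (10513741 to 10513834) was detected, with 36 and 51 sense counts, or 8.44 and 9.90 CPM. The 25 Mir466 genes together had 43 counts in replicate 1 and 63 in replicate 2. Mir466h, known from studies of apoptosis in cultured cells, had 3 and 1 counts. It was not detected, and 93.5% of its precursor's 20-base stretches are its own.

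In the Mir297 family 1 of 6 genes was detected, at the lowest level of the 9. Mir297a-2 (10472254 to 10472343) had 11 and 16 sense counts, or 2.58 and 3.11 CPM. The other 5 Mir297 genes had none. Just outside the threshold stood Mir669h with 7 and 11 counts, while Mir466, with 1 and 7, was below it in both replicates.

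**Figure D2:**
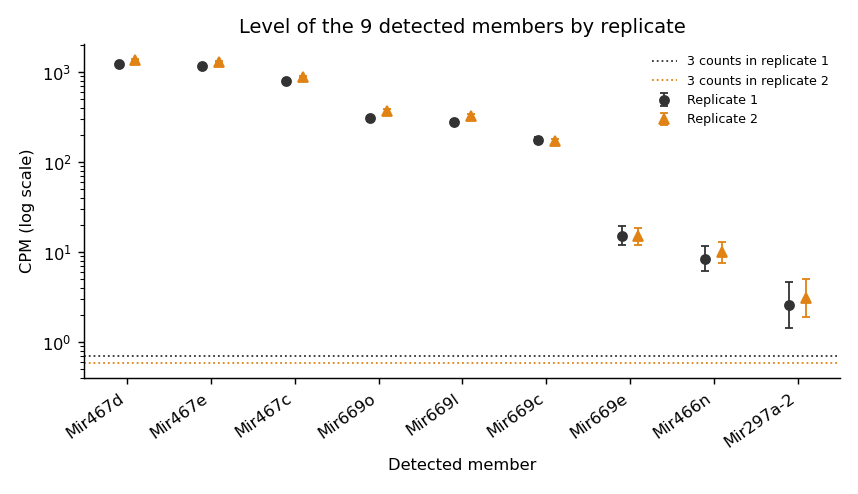
CPM (log scale) of the 9 detected members in replicate 1 (circles) and replicate 2 (triangles), with Wilson 95% intervals and dotted lines at the CPM of 3 counts in each library. Mir467d, Mir467e and Mir467c stand between 786 and 1358 CPM, Mir669o, Mir669l and Mir669c between 171 and 369, and Mir669e, Mir466n and Mir297a-2 at or below 15.2.

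The counted reads came from both ends of the cluster and hardly any from its middle. The 15 members on the 5′ side of the Mir467a copies held 4616 and 6331 sense counts in the 2 replicates, with 4 detected. The 21 members on the 3′ side held 12273 and 16544, with 5 detected. The 23 members from Mir467a-1 to Mir467a-10 held 2 and 1, with 0 detected.

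That middle block is regularly spaced, and spacing in the rest of the cluster was not measured. The 10 Mir467a copies, Mir467b and Gm25022, whose precursor is identical to that of Mir467a-2, follow each other at distances of 2413 to 2470 bases, with a median of 2451. Including Mir467a-2 itself, 7 of these 12 precursors are identical over 83 bases. Of the 23 members in the block, 19 have no 20-base stretch of their own. For these 19 no exact read of 20 or 22 bases could align to 1 precursor alone, and their counts say nothing of their level.

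Detected members all had some sequence of their own, but many members with such sequence were not detected. Of the 20 members with no own stretch of 20 bases, 0 were detected, and they held 1 count over both libraries. Of all miRNA genes with no own stretch, 6 of 264 were detected, so a count of 0 among 20 does not set the members apart. Of the 28 members with some own sequence but under 50%, 2 were detected (Mir467d and Mir297a-2). Of the 21 with at least 50%, 7 were detected, all among the 13 of these that lie in Sfmbt2. Over all miRNA genes 323 of 1314 with at least 50% were detected, and no difference from that share was tested.

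The 6 others of those 13 had few or no counts, with at least 50% of their precursor's 20-base stretches their own. Whether their mature miRNAs align to 1 place was not tested. Mir466g, with 100% of its 20-base stretches its own, had 1 count in replicate 1 and 0 in replicate 2. Mir669b (87.2%), Mir466l (85.3%), which has been linked to the stability of interleukin mRNA in macrophages, and Mir669i (73.1%) had 0 in both. Mir466h and Mir669h had the few counts given above. Outside Sfmbt2, 8 members had at least 50% and 0 counts. Among the detected, own sequence ran from 32.4% in Mir297a-2 to 95% in Mir669e, with a median of 52.0%, beside a median of 30.8% in the 60 undetected members. The undetected include the members with no own stretch, whose reads can hardly enter a count, so their lower median was partly fixed in advance.

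**Figure D3:**
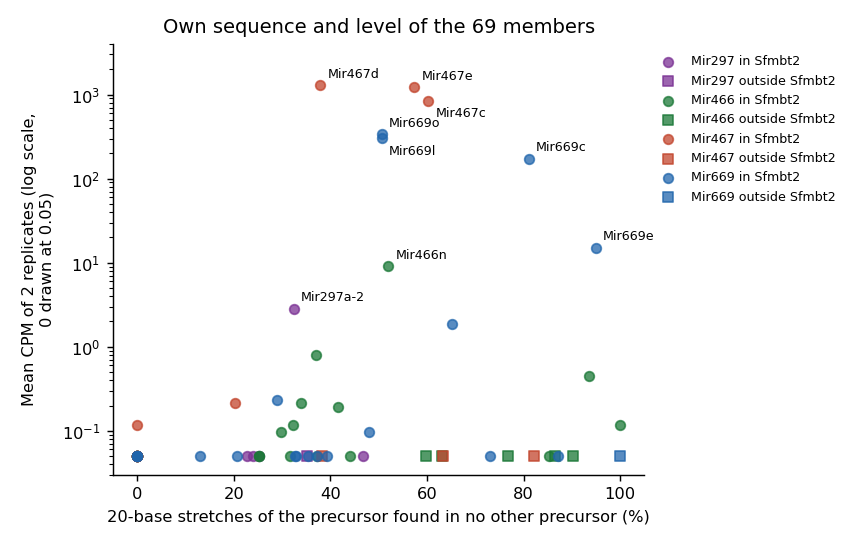
Mean CPM over 2 replicates (log scale, members with no count drawn at 0.05) of the 69 members against the percentage of their precursor's 20-base stretches found in no other miRNA precursor, coloured by family, circles in Sfmbt2 and squares elsewhere. The members at 0% own sequence lie on or near the lowest line, while those with at least 50% range from no count to the level of Mir467e.

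The replicates gave close levels for the detected members, with differences of at most 1.21-fold. The difference between the pools was tested gene by gene (exact binomial test, two-sided, given the library totals), with p-values adjusted over all 340 detected miRNA genes. Of the 9 members, 5 were higher in replicate 2 past an adjusted p of 0.05 and 0 lower, beside 25.3% of all detected genes that were higher, 25.6% lower and 50.9% in either direction. The test sets 2 pools against counting noise and carries no information on a condition.

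The 5 were the members with the most counts. Mir467d had a log2 ratio of replicate 2 over replicate 1 of 0.16 (95% exact interval 0.11 to 0.21, adjusted p = 7.03e-09, exact binomial test). Mir467e had 0.15 (adjusted p = 6.05e-08, exact binomial test) and Mir467c had 0.17 (adjusted p = 4.67e-07, exact binomial test). Mir669o had the highest, 0.27 (0.17 to 0.38, adjusted p = 4.00e-07, exact binomial test), and Mir669l had 0.22 (adjusted p = 0.000127, exact binomial test).

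Mir669c had a log2 ratio of -0.03, with an interval of -0.18 to 0.11 that lies below the estimate of each of the 5. The difference between Mir669c and the others was not tested. For the low members the counts set wide intervals, from -0.52 to 0.47 in Mir669e, from -0.41 to 0.89 in Mir466n and from -0.93 to 1.52 in Mir297a-2, and none passed the threshold.

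The median log2 ratio of the 9 members was 0.17, beside 0.02 over all detected genes. All 9 ratios were smaller in size than the SD of the ratio over the 340 detected genes, 0.38. The middle 50% of all detected genes lay between -0.24 and 0.20. Mir669o, Mir297a-2, Mir466n and Mir669l lay above that range, and the other detected members lay inside it. The skeletal muscle markers Mir206 (11050 and 4787 CPM) and Mir133b (84.2 and 41.9 CPM) were lower in replicate 2, while the limb list as a whole summed to 204376 and 218004 CPM. The part of tissue make-up in the members' ratios was not tested. The make-up of the cluster hardly moved, with Mir467 at 80.1% and 79.8% of the members' counts and Mir669 at 19.6% and 19.9%.

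**Figure D4:**
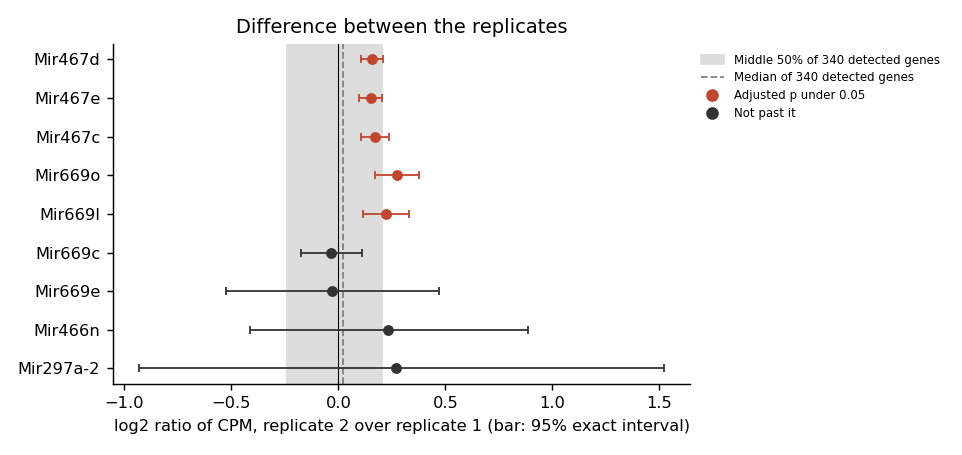
log2 ratio of CPM of replicate 2 over replicate 1 for the 9 detected members, with 95% exact intervals, red where the adjusted p is under 0.05, beside the median (dashed) and the middle 50% (grey) of the 340 detected miRNA genes. The 5 red members lie between 0.15 and 0.27 and the intervals of the other 4 cross 0.

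On the antisense strand the members had 1 count in replicate 1, at Mir467f, and 0 in replicate 2. That is 0.00592% of the members' counts on both strands in replicate 1 (Wilson 95% interval 0.00105 to 0.0335), and 0 of 22876 in replicate 2 allows up to 0.0168% by the same interval. Over all miRNA genes 3.60% and 3.10% were antisense. A near absence of antisense counts was not particular to the members. The Mir379 to Mir410 cluster on chromosome 12 had 0 in both replicates, beside 298379 and 280161 sense counts. In the Mir290a to Mir295 cluster on chromosome 7 there were 1 and 0, beside 36 and 23 sense counts. All counted reads of the 59 members in Sfmbt2 lay on the strand of the precursors, which is that of Sfmbt2.

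The annotation has 48 further miRNA genes with Gm symbols inside Sfmbt2, among them Gm25285, which RefSeq also lists as Mir466c-3. Of these 43 had no sense count, and the other 5 held 10 counts in replicate 1 and 13 in replicate 2. The symbol rule thus left out little of the counted signal of the locus.

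The share of detected members, 13.0%, was near the 17.2% of all miRNA genes, and it lay below that of one like cluster and above that of another. In the imprinted Mir379 to Mir410 cluster on chromosome 12, 28 of 33 genes were detected, 5 shared a 20-base stretch with another precursor and 0 had a TG or CA run of at least 8 bases. That cluster held 6.22% ± 1.10 of the sense counts, against 0.420% ± 0.0339 for the members (SD, n = 2). Its 28 detected genes were all lower in replicate 2, 26 of them past the threshold, with a median log2 ratio of -0.35. No test of the difference between clusters was made.

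In the Mir290a to Mir295 cluster on chromosome 7, known from pluripotent cells and trophoblast as the Sfmbt2 cluster is, 0 of 7 genes were detected and 4 shared a 20-base stretch. It held 36 and 23 sense counts, compared with 16891 and 22876 for the members. With Mir302 and Mir367, 12 genes of that kind had a row, of which Mir302a, Mir302b and Mir302d were detected. Together they had 28.8 CPM in replicate 1 and 27.0 in replicate 2, and Mir291b and Mir367 had no count. All 8 limb markers (Mir206, Mir133b, Mir140, Mir196b, Mir10b, Mir203, Mir205 and Mir126a) were detected, with means of 63.1 to 72531 CPM.

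**Figure D5:**
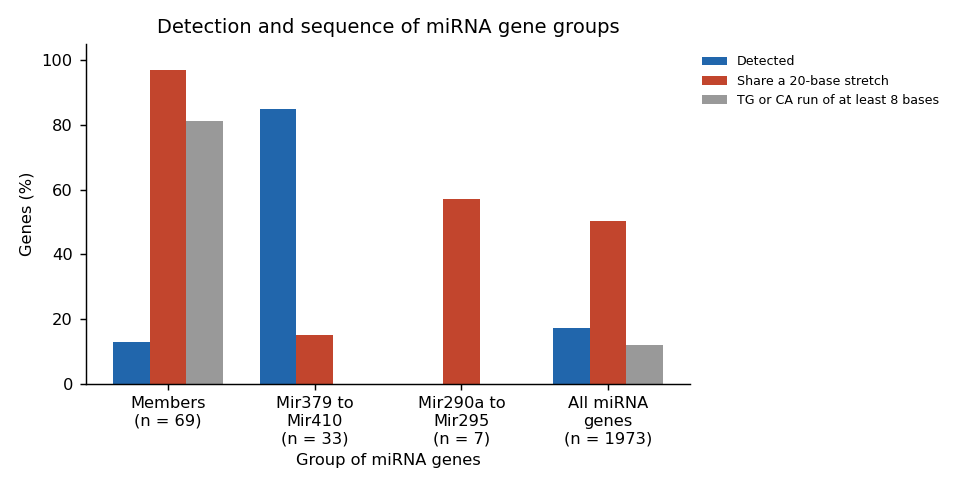
Percentage of genes detected (blue), with a 20-base stretch shared with another precursor (red) and with a TG or CA run of at least 8 bases (grey) in the 69 members, the 33 genes of the Mir379 to Mir410 cluster, the 7 of the Mir290a to Mir295 cluster and all 1973 miRNA genes (sequence measures over the 1894 with a precursor). The members have 97.1% sharing and 13.0% detected, while the Mir379 to Mir410 cluster has 15.2% sharing and 84.8% detected. The Mir290a to Mir295 cluster has 57.1% sharing and 0% detected, and all miRNA genes have 50.3% and 17.2%.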

How the data were processed

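The tables the authors deposited give raw, whole-number counts for each miRNA gene. The deposited README names assembly mm10 and annotation M4. The aligner and counter are not given in the sources used here. Columns have no header. From the values they were read as counts on either strand, sense and antisense. Identifiers were matched without version to GENCODE M21 (1894 of 1973; the 79 others held 3 counts on either strand over both libraries).

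Libraries held 4263630 and 5151214 sense counts. CPM uses these totals, without TMM or size factors. Detection needed at least 10 sense counts in both replicates. Detected genes were tested with an exact binomial test and Benjamini-Hochberg adjustment at 0.05 (scipy 1.17.1, Python 3.11.15). The code was checked on counts simulated with counting noise alone. That check does not cover any further spread between the pools. With 1 group no quasi-likelihood test could be made. Alternatives used edgeR 4.0.16 and DESeq2 1.42.0 in R 4.3.3. Precursor sequences came from GENCODE M21 transcripts, and both strands were searched for shared stretches of 20 bases.

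Members and lists were chosen with earlier results of these data known. Named are all detected members, those with antisense counts, and members named for a small count, a shared sequence or a known role, chosen after their values were seen.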

Additional observations from a re-analysis of the deposited data

Results flagged for a closer look

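Counts above the 3 that a count of 0 can hide were found in miRNA genes of the same intron that the symbol rule does not take. Gm25263 had 7 sense counts in replicate 1 and 2 in replicate 2. Gm22925 had 2 in replicate 1 and 6 in replicate 2. Both lie on chromosome 2 near the 3′ end of the cluster, between Mir669c and Mir297b.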

How the results depend on the processing

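The number of detected members was 14 with at least 1 count in both replicates, 6 with at least 100, and between 9 and 10 with 1 replicate left out, against 9 as reported. Their summed level was 1973 counts in every 1000000 reads of the whole library, in place of 4201 CPM. That total also holds antisense counts, unmapped reads, reads with several alignments, and reads matching no gene or ambiguous between genes. The summed level lay between 3962 and 4441 CPM with 1 replicate left out. It moved by less than 1 SD with TMM library sizes, DESeq2 size factors, counts on both strands or the members in Sfmbt2 alone. The count of 5 members that differed between replicates was 5 under TMM, DESeq2 size factors and a minimum of 1 count, beside 50.3%, 49.1% and 31.5% of all genes tested. With a minimum of 1 count these were 5 of 14 members, a share near that of all genes. The median log2 ratio ranged from 0.15 to 0.17. The signs and calls of the 9 detected members held under these settings and, where they were tested, with at least 100 counts. The antisense share was between 0 and 0.00592% with 1 replicate left out. Shared sequence was found in 68 members with stretches of 18 bases and 67 with 22. In searches added after the data were seen, all annotated transcripts gave 69, and the 20 members with no own stretch stayed 20 at 18 bases, 22 bases and against all transcripts. Reads with several alignments are in no gene, so undetected members with shared sequence have no known upper level. No test between replicates can be made with 1 library. No paired analysis was possible because the series has 1 group.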
